A study of Mus musculus with 124 samples.

Results

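A set of 10 antigen presentation genes, Tap1, Tap2, Tapbp, B2m, H2-K1, H2-D1, H2-T23, H2-Ab1, H2-Aa and Nlrc5, was followed in oocytes, blastocysts and offspring brain after exposure of female mice to hCG (human chorionic gonadotropin, a hormone given to induce ovulation). The 10 genes, out of 35122 gene symbols in the RNA tables, were picked by symbol because Tap1 and H2-Ab1 had been seen to be higher in hCG blastocysts. Their blastocyst values are therefore given as a description, without a p-value. All 10 were listed in each of the 3 tables, and 4 passed the low-count filter in oocytes, 8 in blastocysts and 8 in dorsal dentate gyrus (dDG).

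Peptides on class I molecules come from cytosolic proteins that the proteasome cuts. The transporter made of TAP1 and TAP2 carries them into the endoplasmic reticulum, where tapasin, encoded by Tapbp, holds the transporter beside an empty class I molecule. A class I molecule is a heavy chain (H2-K1, H2-D1 or the non-classical H2-T23) bound to beta-2 microglobulin, the product of B2m. Class II molecules, of which H2-Aa encodes the alpha and H2-Ab1 the beta chain of I-A, present peptides from endosomes and are best known from dendritic cells, macrophages and B cells. NLRC5 is an activator of class I genes. Preimplantation embryos and neurons are known for low levels of these molecules, and microglia and endothelium are the brain cells best known to carry them.

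In the oocyte comparison, hCG females in natural estrus had received 7.5 IU hCG intraperitoneally without priming, and their metaphase II oocytes were taken 14 h later (6 libraries). Ctrl females in estrus were instead housed with a vasectomised male and used the next morning when plugged (6 libraries), so the groups were not matched for mating or for time after ovulation. Blastocysts, flushed from uteri, were at embryonic day 3.5 (28 hCG and 28 Ctrl libraries), and dDG came from perfused offspring aged 8 weeks (6 hCG and 6 Ctrl libraries). The hCG dose was 7.5 IU for the hCG blastocyst and hCG dDG groups as well. The labels give no strain, litter, sex or batch and do not say whether replicates are separate animals, so p-values measure the spread between these samples.

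Depth was 4174886 to 5346134 counts in hCG and 2379861 to 6924189 in Ctrl oocytes, an estimated 4263369 to 9259357 reads in hCG and 3043231 to 10859379 in Ctrl blastocysts, and 15931301 to 17307307 expected counts in hCG and 14991582 to 17859654 in Ctrl dDG. The labelled materials carried their defining markers: Gdf9, an oocyte growth factor, was at 2938 CPM (counts scaled to a common library total) or more in every oocyte library, Krt8, a trophectoderm keratin, at 310 CPM or more in every blastocyst library, and Prox1, a granule neuron factor, at 94.7 CPM or more in every dDG library. Other genes of these marker lists differed between groups. In oocytes 2 of 8, Zp3 and Mos, were called lower in hCG, where 2.67% of all genes tested were. In blastocysts 1 of 11 was called lower, Eomes, and 1 higher, Nanog, where 7.59% and 8.68% of all genes tested were. Ctrl blastocyst libraries 12 and 26 stood apart, with 10382 and 10720 genes detected against 13549 ± 335 (SD, n = 28) in hCG and 12968 ± 798 (SD, n = 28) in all Ctrl blastocysts. A total of 5 hCG blastocyst libraries (1, 3, 4, 22 and 23) held transcripts of both Xist and the Y chromosome, each at 50 CPM or more. In dDG library hCG 6, choroid plexus markers summed to 9690 CPM, against 32.5 to 73.6 CPM in the other hCG and 30.7 to 109 CPM in the Ctrl libraries. Without Ctrl libraries 12 and 26 the log2 difference of Eomes was -0.70, and without the 5 hCG libraries -0.61, called in both fits. That of Nanog was 0.55 and 0.44 in these fits, called in neither. Differences of the members tested and of most of the called genes named below are given with and without these libraries.

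The promoters of 7 members were in the supplied RefSeq sequences (build GRCm38.p6), each of 300 bases. Except for H2-K1, each ran from 250 bases before to 50 after the start of the gene. The H2-K1 window lay wholly within the listed span of that gene (33996012 to 34000619) and did not reach its start at 34000619. Shown here are Tap1 (chr17:34187306-34187605, plus strand), whose level differed most in blastocysts; B2m (chr2:122147437-122147736, plus strand), the member nearest to the threshold in oocytes and dDG; H2-K1 (chr17:34000298-34000597, minus strand) and H2-D1 (chr17:35262844-35263143, plus strand), which varied together between blastocysts; and H2-Aa (chr17:34287774-34288073, minus strand), the class II gene read in oocytes. Capitals mark, on either strand, CCAAT (the core of the Y box) and TGACG (the core of the X2 box). They also mark a kappaB motif (GGGGA followed directly by TTCCC) and an interferon-stimulated element (TTTC, any 2 bases, TTTC).
Tap1: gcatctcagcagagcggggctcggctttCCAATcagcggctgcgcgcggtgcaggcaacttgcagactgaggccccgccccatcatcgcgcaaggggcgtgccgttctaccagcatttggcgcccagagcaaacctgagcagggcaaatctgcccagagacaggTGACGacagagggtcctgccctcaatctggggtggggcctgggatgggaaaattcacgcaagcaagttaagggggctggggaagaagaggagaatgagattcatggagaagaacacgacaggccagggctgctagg
B2m: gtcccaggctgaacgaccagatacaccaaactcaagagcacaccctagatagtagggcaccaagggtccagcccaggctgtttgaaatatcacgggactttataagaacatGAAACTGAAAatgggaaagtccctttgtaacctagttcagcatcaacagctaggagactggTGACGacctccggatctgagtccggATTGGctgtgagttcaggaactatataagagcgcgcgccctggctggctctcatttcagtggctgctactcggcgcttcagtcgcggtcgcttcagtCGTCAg
H2-K1: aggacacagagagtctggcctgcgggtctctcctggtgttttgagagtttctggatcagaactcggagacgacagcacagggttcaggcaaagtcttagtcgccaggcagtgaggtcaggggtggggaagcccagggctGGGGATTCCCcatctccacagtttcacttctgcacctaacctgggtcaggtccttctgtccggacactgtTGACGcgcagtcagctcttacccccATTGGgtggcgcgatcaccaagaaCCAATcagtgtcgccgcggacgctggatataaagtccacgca
H2-D1: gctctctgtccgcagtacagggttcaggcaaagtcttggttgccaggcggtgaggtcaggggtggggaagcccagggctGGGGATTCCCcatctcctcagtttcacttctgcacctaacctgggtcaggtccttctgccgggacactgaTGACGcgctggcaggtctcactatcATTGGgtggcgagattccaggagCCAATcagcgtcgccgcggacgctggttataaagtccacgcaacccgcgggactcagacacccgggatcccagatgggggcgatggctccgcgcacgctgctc
H2-Aa: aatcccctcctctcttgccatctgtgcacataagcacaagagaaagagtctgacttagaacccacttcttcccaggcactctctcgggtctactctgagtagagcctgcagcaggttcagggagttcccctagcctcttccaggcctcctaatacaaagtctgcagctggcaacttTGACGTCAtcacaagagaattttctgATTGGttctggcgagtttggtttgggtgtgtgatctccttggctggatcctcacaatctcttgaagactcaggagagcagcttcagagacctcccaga
CCAAT was in 7 of 7 member promoters and in 37.4% of 32851 promoters of the same length, and TGACG was in 5 of 7, against 20.8%. In H2-Aa the TGACG matches of both strands overlap. The kappaB motif was in 2 of 7, H2-K1 and H2-D1, and in 0.107% of all promoters. The interferon-stimulated element was in 2 of 7, B2m and H2-T23, against 3.44%. The H2-K1 and H2-D1 windows were 88.3% identical over 239 aligned bases. The window of Tap1 shares 275 bases with that of Psmb9, an immunoproteasome subunit that starts 226 bases away on the opposite strand. These matches are letters in a window and do not show that a factor binds.

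In all, 8 members lie on chromosome 17 (GRCm38.p6 positions), in the major histocompatibility complex (MHC), where Tap1 spans 34187556 to 34197225 and H2-Ab1 spans 34263227 to 34269418. B2m lies on chromosome 2 (122147687 to 122153082) and Nlrc5 on chromosome 8 (94434335 to 94527272). The H2 genes are a family of similar and polymorphic sequences, so reads can be shared, lost or assigned to a relative, and values of H2-K1, H2-D1 and H2-T23 are uncertain to that extent.

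In blastocysts the largest difference among the members was that of Tap1. Its lowest, median and highest levels were 2.62, 9.93 and 23.9 CPM in hCG libraries, against 0, 3.71 and 17.98 CPM in Ctrl libraries. The groups overlapped, but 26 of 28 hCG libraries lay above the Ctrl median and 13 Ctrl libraries lay below the lowest hCG library, 3 of them at 0. The means were 11.3 ± 5.34 CPM in hCG and 5.23 ± 4.98 CPM in Ctrl (SD, n = 28 each), with a log2 difference of 1.35 ± 0.27 (SE) on the scale of log2(CPM + 1). For low genes this value depends on the scale. With 0.1 added in place of 1 the Tap1 difference was 1.95, and with edgeR on estimated reads it was 1.08. Without Ctrl libraries 12 and 26 the Tap1 difference was 1.22, without the 5 hCG libraries with Xist and Y-linked transcripts 1.40, and 1.01 with genes detected as covariate. The spread of Tap1 within groups was larger than that of 91.6% of 500 genes of like level.

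Tap2, the other chain of the transporter, stayed near the detection limit. Its median was 0.400 CPM in hCG and 0 CPM in Ctrl blastocysts, with 5 hCG and 15 Ctrl libraries at 0 and highest values of 3.42 and 1.61 CPM. It did not pass the filter, and 3 reads correspond to 0.324 to 0.704 CPM in these hCG libraries. Tapbp was at 9.00 ± 3.85 CPM in hCG and 7.87 ± 5.07 CPM in Ctrl (SD, n = 28 each), a log2 difference of 0.23 ± 0.18 (SE), or 0.18 without Ctrl libraries 12 and 26 and 0.21 without the 5 hCG libraries with Xist and Y-linked transcripts.

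**Figure D1:**
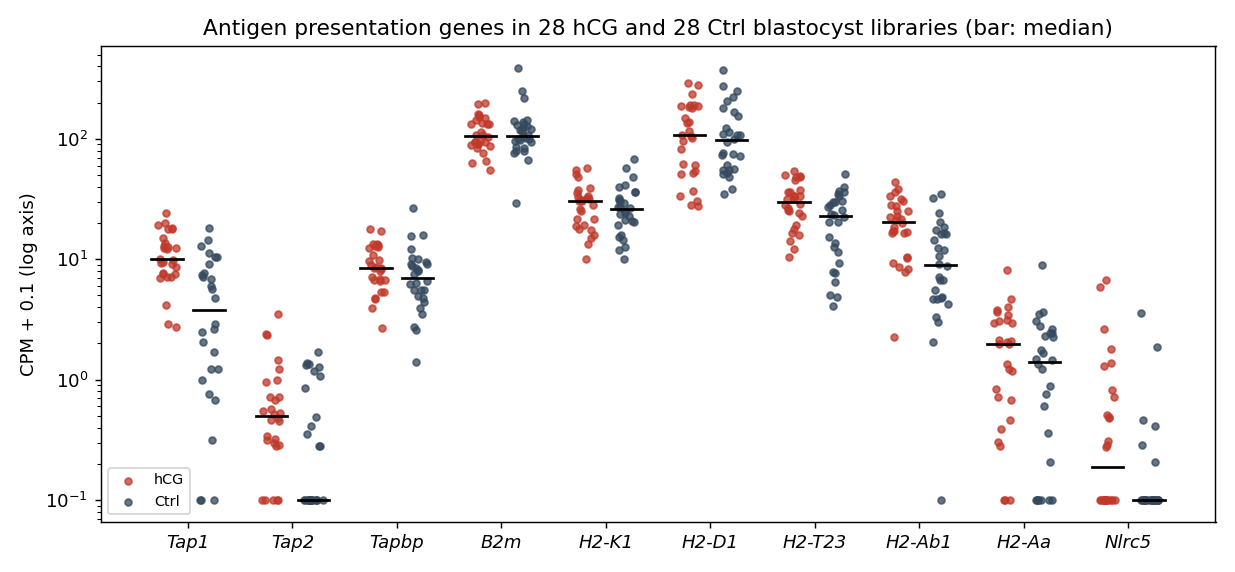
Level of each member in 28 hCG (red, left) and 28 Ctrl (dark, right) blastocyst libraries, as CPM + 0.1 on a log axis; each point is 1 library and each bar a group median. Tap1 medians were 9.93 CPM in hCG and 3.71 CPM in Ctrl, while those of B2m were 106 and 105 CPM.

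B2m and the classical heavy chains had log2 differences smaller than their SE in blastocysts. B2m had its lowest, median and highest values at 55.0, 106 and 200.1 CPM in hCG, against 29.4, 105 and 391 CPM in Ctrl blastocysts, and its log2 difference was -0.06 ± 0.16 (SE). The highest Ctrl value was that of library 12. The B2m difference changed sign, to 0.026, without Ctrl libraries 12 and 26, and to 0.25 with genes detected as covariate, and was -0.07 without the 5 hCG libraries with Xist and Y-linked transcripts. H2-K1 was at 29.4 ± 12.4 CPM in hCG and 28.1 ± 13.6 CPM in Ctrl (log2 difference 0.05 ± 0.16), and H2-D1 at 121 ± 76.4 CPM in hCG and 119 ± 82.3 CPM in Ctrl (log2 difference -0.05 ± 0.25; SD and n = 28 each, SE for differences). Without Ctrl libraries 12 and 26 the differences of H2-K1 and H2-D1 were 0.08 and -0.09, and without the 5 hCG libraries 0.03 and -0.08. The hCG and Ctrl libraries overlapped over most of their range for these genes.

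Between libraries H2-K1 and H2-D1 varied together, with a Spearman correlation of 0.73 over 56 blastocyst libraries after each group's median was subtracted (0.72 within hCG and 0.72 within Ctrl). That of Tap1 with H2-K1 was -0.38 (-0.71 within hCG and -0.21 within Ctrl). Libraries share depth and scaling, so these values are a description. The 10 lowest H2-D1 values in hCG, 27.5 to 61.3 CPM, were those of libraries 6 to 14 and library 23, and the 6 highest Tap1 values in hCG, 17.6 to 23.9 CPM, came from libraries 6, 8, 9, 10, 11 and 14. The labels give the library numbers no meaning.

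H2-T23, the mouse gene for the Qa-1 molecule, was higher in hCG blastocysts by a log2 difference of 0.58 ± 0.21 (SE), or 0.61 without Ctrl libraries 12 and 26 and 0.63 without the 5 hCG libraries with Xist and Y-linked transcripts. Its lowest, median and highest levels were 10.3, 30.0 and 54.2 CPM in hCG, against 3.96, 22.8 and 50.5 CPM in Ctrl. The 9 lowest Ctrl libraries, 3.96 to 12.5 CPM, were libraries 4 to 12. Libraries 4 to 11 held over 6000000 estimated reads each and library 12 the fewest of all, 3043231. Ctrl libraries 17 and 22 also exceeded 6000000 (6514215 and 6472347), but their H2-T23 levels were 29.8 and 29.9 CPM. The Spearman correlation of H2-T23 with estimated reads was -0.65 within hCG and -0.69 within Ctrl libraries. For Tap1 it was 0.29 and 0.39. Whether the low Ctrl values go with depth or with the run of library numbers was not tested, and the labels give these numbers no meaning. A boundary at 6000000 estimated reads was set after the values were seen. At or above it, the median H2-T23 level in 7 hCG libraries was 22.6 CPM (11.99 to 33.4 CPM). For 10 Ctrl libraries at or above it, the median was 7.69 CPM (3.96 to 29.9 CPM). Below it, the median was 33.3 CPM in 21 hCG (10.3 to 54.2 CPM) and 26.5 CPM in 18 Ctrl libraries (12.5 to 50.5 CPM), a log2 difference of 0.21. Tap1 differed in those shallower libraries by 1.52 and H2-Ab1 by 1.24. With log2 estimated reads as covariate over all 56 libraries, the H2-T23 difference was 0.45, that of Tap1 1.44 and that of H2-Ab1 1.01.

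**Figure D2:**
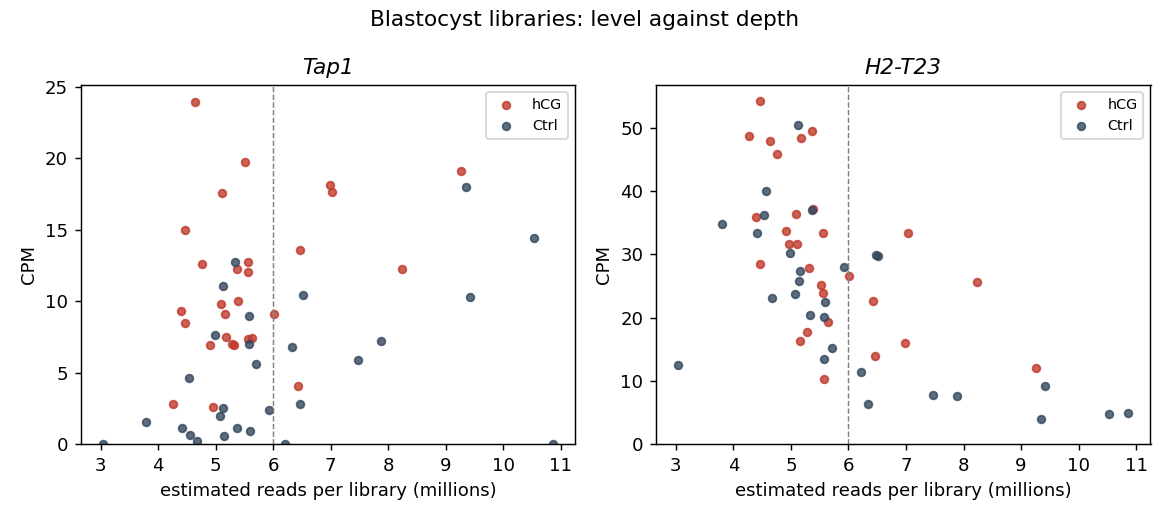
Level (CPM) of Tap1 and H2-T23 in each blastocyst library against its estimated reads, hCG in red and Ctrl in dark; the dashed line marks 6000000 reads. Median H2-T23 was 22.6 CPM in hCG and 7.69 CPM in Ctrl libraries right of the line, and 33.3 CPM in hCG and 26.5 CPM in Ctrl libraries left of it.

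H2-Ab1, the class II beta chain, was the other member with a log2 difference near 1 in blastocysts. Its lowest, median and highest levels were 2.18, 20.4 and 43.7 CPM in hCG, against 0, 8.93 and 34.4 CPM in Ctrl. There were 24 of 28 hCG libraries above the Ctrl median and 3 above the highest Ctrl library, and the log2 difference was 0.98 ± 0.26 (SE), or 0.88 without Ctrl libraries 12 and 26 and 0.89 without the 5 hCG libraries with Xist and Y-linked transcripts. H2-Aa, its partner chain, was at 1.96 ± 1.81 CPM in hCG and 1.56 ± 1.82 CPM in Ctrl (SD, n = 28 each), with 3 hCG and 7 Ctrl libraries at 0 and a log2 difference of 0.23 ± 0.23 (SE), or 0.14 and 0.13 without those Ctrl and hCG libraries. Nlrc5 was at 0 in 14 hCG and 22 Ctrl libraries and reached 6.61 CPM in hCG and 3.48 CPM in Ctrl, below the filter.

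Markers of maternal cells that a flushed blastocyst could carry were read in both groups. Of 15 leukocyte markers, Tyrobp and Itgax were at 0 in every blastocyst library, Ptprc reached 0.188 CPM in hCG and 0 in Ctrl, and 0 of the 2 that passed the filter, Cd68 and Laptm5, were called by limma (0 at an unadjusted p under 0.05 and 0 by edgeR on estimated reads); their summed level was 15.7 to 187 CPM in hCG and 17.1 to 239 CPM in Ctrl. Of 16 uterine markers, 0 of the 4 tested were called by limma (2 at an unadjusted p under 0.05, 0 by edgeR on estimated reads), with sums of 704 to 1566 CPM in hCG and 783 to 1703 CPM in Ctrl. Of 7 perivascular macrophage markers, Pf4, F13a1 and Ms4a7 were at 0 in every library, and 1 of the 2 tested, Cbr2, a carbonyl reductase, was called. It was at 8.15 ± 6.05 CPM in hCG and 3.30 ± 2.49 CPM in Ctrl (SD, n = 28 each) and rose by 1.10 ± 0.24 (log2, SE; limma adjusted p = 0.00171), with 25 of 28 hCG libraries above the Ctrl median. Cbr2 was called in 11 of 12 alternatives, not with genes detected as covariate (0.75, limma adjusted p = 0.0504). Mrc1, the mannose receptor, differed by -0.16 ± 0.24 (limma adjusted p = 0.705), and the list summed to 2.62 to 27.2 CPM in hCG and 0 to 12.4 CPM in Ctrl. Of 12 cumulus and granulosa markers, the 1 tested, Amhr2, a receptor of anti-Müllerian hormone, rose by 0.62 ± 0.20 (limma adjusted p = 0.0268) and was called in 10 of 12 alternatives, not with edgeR on estimated reads (edgeR adjusted p = 0.106) or without the 5 hCG libraries with Xist and Y-linked transcripts (0.61, limma adjusted p = 0.0575). That list summed to 2.89 to 18.1 CPM in hCG and 1.38 to 19.2 CPM in Ctrl. The part of these markers in the levels of H2-Ab1 and the other members was not tested. In bulk libraries fewer cells of a type and less RNA per cell cannot be told apart.

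The rest of the pathway was tested with limma on all 10850 genes that passed the filter in blastocysts, of which 16.3% were called at a Benjamini-Hochberg adjusted p under 0.05 (8.68% higher and 7.59% lower in hCG). In the list set up for class I processing and loading, 3 of 13 tested rose and 1 fell. The place of Sppl2a in this list is an assignment made here and was not tested. Tapbpl, a tapasin relative that edits peptides, rose by 0.66 ± 0.21 (log2, SE; limma adjusted p = 0.0231) with 25 of 28 hCG libraries above the Ctrl median, but was 0.29 among libraries under 6000000 estimated reads (limma adjusted p = 0.386) and was not called by edgeR on estimated reads (0.82, edgeR adjusted p = 0.0848). Hspa5, the chaperone BiP, and Sppl2a, an intramembrane protease, also rose, by 0.48 ± 0.17 and 0.37 ± 0.13. Canx, the chaperone calnexin, averaged 589 ± 160 CPM in hCG and 784 ± 210 CPM in Ctrl (SD, n = 28 each) and fell by 0.44 ± 0.10 (limma adjusted p = 0.00270). Psmb9, the neighbour of Tap1, was at 10.7 ± 4.31 CPM in hCG and 8.63 ± 5.03 CPM in Ctrl (SD), with a difference of 0.38 ± 0.19 that did not pass (limma adjusted p = 0.166). The list's median log2 difference was 0.04, against 0.023 over all genes tested. Without Ctrl libraries 12 and 26, Hspa5 (0.37, limma adjusted p = 0.0853) and Sppl2a (0.28, limma adjusted p = 0.112) were no longer called, nor was Sppl2a without the 5 hCG libraries with Xist and Y-linked transcripts (0.37, limma adjusted p = 0.0802).

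Of the other class I heavy chain genes in blastocysts, 1 of 6 tested rose. This was Fcgrt, the neonatal Fc receptor, at 9.98 ± 7.88 CPM in hCG and 3.88 ± 2.92 CPM in Ctrl (SD, n = 28 each), with a log2 difference of 1.14 ± 0.26 (SE; limma adjusted p = 0.00210). Of the other class II genes, 1 of 9 rose: Lgmn, the endosomal protease legumain, by 0.48 ± 0.14 (limma adjusted p = 0.0138). Cd74, the invariant chain, was at 48.5 ± 25.3 CPM in hCG and 33.9 ± 25.2 CPM in Ctrl (SD), 0.73 ± 0.30 apart, and did not pass (limma adjusted p = 0.0874). Among MHC transcription and interferon gamma signalling genes, Nfyc, a Y box subunit, and Ifngr2, a receptor chain, rose by 0.27 ± 0.09 and 0.56 ± 0.20. Of the 17 tested, 2 were called lower, of which the kinase Jak1 had a log2 difference of -0.35 ± 0.09 (limma adjusted p = 0.00795). Without Ctrl libraries 12 and 26, Nfyc (0.23, limma adjusted p = 0.0584) and Ifngr2 (0.42, limma adjusted p = 0.0703) were not called, and without the 5 hCG libraries they were not either (0.27 and 0.51, limma adjusted p = 0.0676 and 0.111). Canx, Tapbpl, Fcgrt, Lgmn and Jak1 were called in both fits, with differences of -0.41, 0.63, 0.99, 0.39 and -0.32 without the Ctrl libraries and -0.38, 0.79, 1.28, 0.45 and -0.38 without the hCG libraries, and Hspa5 was called without the hCG libraries (0.55). With genes detected as covariate, Canx was still called (limma adjusted p = 0.0449), while Fcgrt (limma adjusted p = 0.0644), Jak1 (0.0566), Lgmn (0.195) and Tapbpl (0.224) were not. Of all 4 lists, edgeR on estimated reads called 6 genes, among them Canx, Fcgrt, Lgmn, Creb1 and Jak1. The medians of the last 3 lists were 0.30, 0.38 and 0.12. Ciita, the class II activator, was at 0 in every Ctrl library and reached 0.940 CPM in hCG. This is near the detection limit, as 3 reads correspond to 0.324 to 0.704 CPM in hCG libraries.

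By likeness to Tap1 across the 56 blastocyst libraries (Spearman correlation after subtraction of group medians, among genes of at least 5 CPM), the nearest genes were Inpp5d, an inositol phosphatase, at 0.72, Ephx1, an epoxide hydrolase, at 0.70, Aaas, a nuclear pore protein, at 0.69, and Ctc1, a telomere protein, at 0.69. Yeats2, Btg2, Plk2 and Ptp4a3 followed at 0.66 to 0.68. Nearest to B2m were Serpinb9b, a protease inhibitor, Cnih4, a cargo receptor, and Patl2, an RNA-binding protein, at 0.60, 0.60 and 0.58, followed by Hsbp1l1, Atp6v0e, Chchd1, Pip4p2 and Krtcap2 at 0.54 to 0.56.

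In oocytes 0 of the 4 members tested were called by edgeR's quasi-likelihood test, where 3.99% of 9565 genes were (1.33% higher and 2.67% lower in hCG); 1 of the 4, B2m, had an unadjusted p under 0.05, and DESeq2 called 0. Tap1 and Nlrc5 had no count in any of the 12 libraries, which at 3 counts allows up to 0.561 to 0.719 CPM in hCG and 0.433 to 1.26 CPM in Ctrl libraries. H2-D1 had 0 to 2 counts per library, H2-T23 0 to 2 and Tap2 0 to 6. The transporter chain Tap1 was not detectable in oocytes at this depth.

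B2m, the light chain, was read in every oocyte library. It was at 41.6, 39.4, 39.7, 41.2, 43.2 and 41.3 CPM in hCG oocytes, against 73.3, 42.4, 82.9, 33.9, 56.3 and 61.8 CPM in Ctrl oocytes. All 6 hCG libraries lay below the Ctrl median in a narrow band, and the Ctrl libraries lay on both sides of that band. The log2 difference was -0.53 ± 0.20 (SE) and did not pass (edgeR adjusted p = 0.141), but without Ctrl library 4, among the shallowest, it was -0.65 and passed (edgeR adjusted p = 0.0289); over the other single libraries left out the adjusted p ran up to 0.313.

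H2-Aa had counts in every oocyte library although its partner H2-Ab1 had 2 counts in all 12. H2-Aa was at 3.97, 11.5, 1.24, 1.198, 3.18 and 7.28 CPM in hCG, against 4.30, 11.8, 21.4, 6.38, 5.53 and 4.87 CPM in Ctrl oocytes. The groups overlapped, and the log2 difference of -0.94 ± 0.51 (SE) did not pass (edgeR adjusted p = 0.339). H2-K1 averaged 7.61 ± 2.38 CPM in hCG and 10.6 ± 6.39 CPM in Ctrl (SD, n = 6 each; log2 difference -0.45 ± 0.39, edgeR adjusted p = 0.595). Tapbp averaged 3.39 ± 1.68 CPM in hCG and 3.66 ± 3.38 CPM in Ctrl, with a difference of -0.16 ± 0.56 (edgeR adjusted p = 0.914) that changed sign when Ctrl library 1 (0.21) or 6 (0.16) was left out.

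Of the pathway lists in oocytes, 0 of 7 processing genes, 0 of 2 other class I genes, 0 of 1 class II gene and 0 of 16 transcription and interferon gamma genes were called by edgeR. At an unadjusted p under 0.05 these were 0, 0, 0 and 4, and by DESeq2 0, 0, 0 and 2 (Nfkb1 and Rfxank). The lists' median log2 differences were 0.09, 0.74, 0.12 and 0.04. Canx was at 558 ± 67.3 CPM in hCG and 549 ± 71.2 CPM in Ctrl (SD, n = 6 each), and Hspa5 at 147 ± 26.8 and 156 ± 34.4 CPM in hCG and Ctrl. Psmb8, Psmb10 and Erap1, immunoproteasome subunits and a trimming peptidase, had no count. Of the last list, Jak2, a kinase, and Ezh2, a histone methyltransferase, had the highest CPM (not scaled for length), with log2 differences of 0.48 ± 0.22 and 0.29 ± 0.16 (edgeR adjusted p = 0.250 and 0.344).

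In the dDG of adult offspring 0 of the 8 members tested were called by edgeR, where 7.86% of 13874 genes were (4.67% higher and 3.19% lower in hCG), and all 8 log2 differences were positive. This was not particular to the members. All 8 other class I genes, 11 endothelial and 5 perivascular macrophage markers tested were positive too. Positive differences were fewer among processing genes (8 of 15), other class II genes (5 of 8) and transcription and interferon gamma genes (12 of 20). An unadjusted p under 0.05 was reached by 3 of the 8 members, Tap1, Tap2 and B2m, and DESeq2 called 1, B2m. B2m came nearest to the threshold. It was at 36.0, 59.3, 44.2, 55.7, 43.4 and 56.4 CPM in hCG, against 28.4, 44.4, 38.5, 36.6, 32.6 and 42.0 CPM in Ctrl dDG, with 5 of 6 hCG libraries above the Ctrl median and the ranges overlapping. The difference of 0.42 ± 0.13 (SE) had an edgeR adjusted p of 0.0560, which was 0.0166 with DESeq2, 0.0232 without hCG library 1 and 0.111 without hCG library 6 (difference 0.37).

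Tap1 was at 2.07, 4.22, 2.34, 3.59, 3.48 and 5.46 CPM in hCG, against 1.85, 3.14, 2.59, 1.36, 1.67 and 3.41 CPM in Ctrl dDG. In all, 4 hCG libraries lay above the highest Ctrl library, and the difference of 0.61 ± 0.27 (SE) did not pass (edgeR adjusted p = 0.185; 0.44 without hCG library 6). Tap2 averaged 13.3 ± 2.35 CPM in hCG and 11.1 ± 1.46 CPM in Ctrl (SD, n = 6 each; 0.27 ± 0.12, edgeR adjusted p = 0.180), and differed by 0.24 without hCG library 6. Tapbp was at 14.5 to 21.5 CPM in hCG libraries 1 to 5 and 35.2 CPM in hCG library 6, against 13.9 to 23.9 CPM in Ctrl. Its difference of 0.19 ± 0.21 was -0.03 without hCG library 6.

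**Figure D3:**
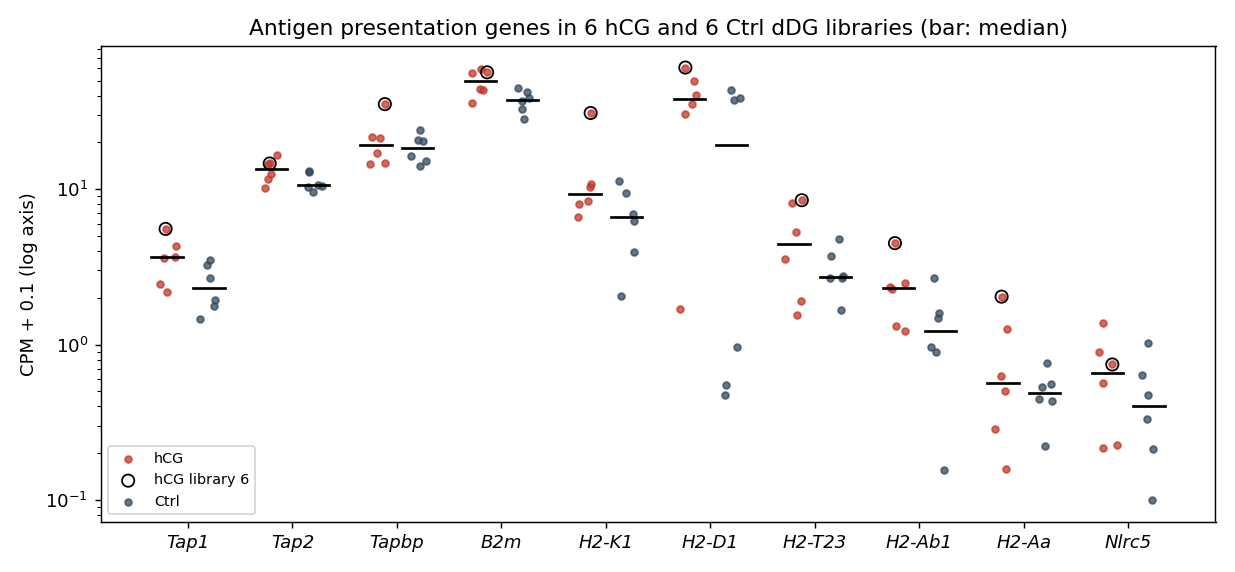
Level of each member in 6 hCG (red, left) and 6 Ctrl (dark, right) dDG libraries, as CPM + 0.1 on a log axis; bars are medians and the open circle marks hCG library 6. H2-D1 fell into separate levels, with 1 hCG and 3 Ctrl libraries at 1.60 CPM or less and the others at 30.3 CPM or more.

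H2-D1 split the dDG libraries in an all-or-little way. It was at 30.3, 1.60, 35.1, 49.5, 40.4 and 60.6 CPM in hCG, against 0.448, 37.3, 0.864, 38.3, 0.374 and 43.1 CPM in Ctrl dDG. Both groups held libraries at each level, and the difference of 0.88 ± 1.05 (SE) did not pass (edgeR adjusted p = 0.656; 0.66 without hCG library 6). Its spread within groups was larger than that of 100% of 500 genes of like level. H2-T10, a non-classical heavy chain, was also split: it was at 5.24, 0.982, 0.351, 6.01, 4.77 and 0.411 CPM in hCG, against 0.112, 5.51, 0.403, 0.620, 0.740 and 5.82 CPM in Ctrl. All 5 libraries with high H2-T10 had high H2-D1.

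**Figure D4:**
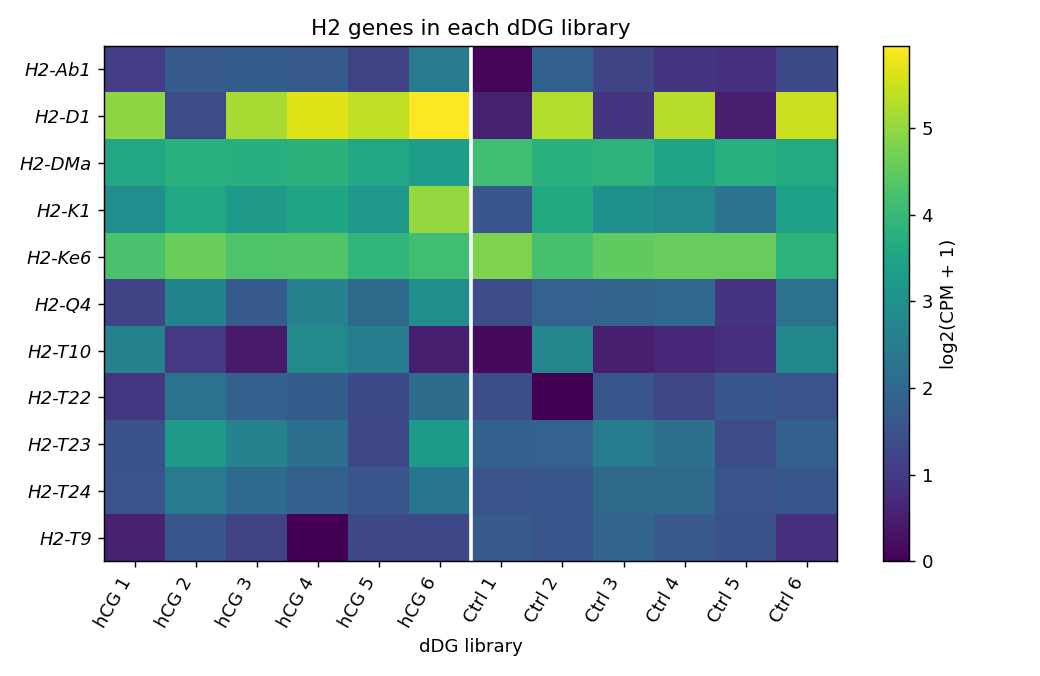
Colour shows log2(CPM + 1) of 11 H2 symbols with a mean of at least 20 counts in each dDG library, the 6 hCG libraries left of the white line and the 6 Ctrl libraries right of it. H2-D1 was at 1.60 CPM or less in hCG 2 and in Ctrl 1, 3 and 5, while H2-DMa was at 8.98 to 13.1 CPM in hCG and 10.05 to 16.5 CPM in Ctrl.

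H2-K1 was at 6.53, 10.7, 8.25, 10.2, 7.96 and 30.8 CPM in hCG, against 1.96, 11.1, 6.86, 6.14, 3.82 and 9.30 CPM in Ctrl dDG. All 6 hCG libraries lay above the Ctrl median, but the difference of 0.95 ± 0.47 (SE) did not pass (edgeR adjusted p = 0.248) and was 0.43 without hCG library 6. H2-T23 averaged 4.74 ± 3.03 CPM in hCG and 2.95 ± 1.06 CPM in Ctrl (SD, n = 6 each; 0.70 ± 0.42, edgeR adjusted p = 0.325), and 0.45 without hCG library 6. H2-Ab1 had a median of 2.22 CPM in hCG and 1.13 CPM in Ctrl, with all 6 hCG libraries above the Ctrl median (0.94 ± 0.51, edgeR adjusted p = 0.280), and the difference was 0.64 without hCG library 6. H2-Aa, with 72 counts in hCG and 39 in Ctrl in all, and Nlrc5, with 58 and 36, did not pass the filter.

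Cell type markers moved with some dDG libraries. Microglial markers summed to 411 to 515 CPM in hCG and 360 to 458 CPM in Ctrl, and 3 of 11 rose: Tmem119 by 0.31 ± 0.08, C1qa by 0.29 ± 0.08 and C1qb by 0.34 ± 0.09 (log2, SE; edgeR adjusted p = 0.0353, 0.0406 and 0.0406). Without hCG library 6 they differed by 0.29, 0.25 and 0.30 and none of the 3 was called (edgeR adjusted p = 0.0672, 0.0832 and 0.0800), and leaving out hCG library 1 or 4 or Ctrl library 1, 5 or 6 also ended all 3 calls. Endothelial markers summed to 163 to 394 CPM in hCG and 151 to 251 CPM in Ctrl, with 1 of 11 called, Ly6c1 (0.84 ± 0.16, edgeR adjusted p = 0.00864; 0.83 without hCG library 6). An unadjusted p under 0.05 was reached by 3 of the 11, and DESeq2 called 3 (Abcb1a, Cldn5 and Ly6c1). All 11 differences were positive, with a median of 0.48. Perivascular macrophage markers summed to 3.77 to 34.4 CPM in hCG and 1.23 to 16.3 CPM in Ctrl, with 0 of 5 called by edgeR (1 at an unadjusted p under 0.05, 0 by DESeq2). Their 5 differences were all positive, with a median of 1.24. Of 8 granule neuron markers 1 rose, Prox1, by 0.36 ± 0.09 (edgeR adjusted p = 0.0319), in 8 of 16 alternatives and not without hCG library 6 (0.33, edgeR adjusted p = 0.0664); DESeq2 also called Calb1, a calcium-binding protein (0.31 ± 0.11 by edgeR, adjusted p = 0.0854). Their sums were 1504 to 1808 CPM in hCG and 1149 to 1685 CPM in Ctrl. Of 10 leukocyte markers tested 1 fell, Coro1a, an actin-binding protein, by -0.24 ± 0.06 (edgeR adjusted p = 0.0249; -0.22 without hCG library 6), in 12 of 16 alternatives. The part of these cell types in the levels of B2m and the H2 genes was not tested.

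Among the pathway lists in dDG, the called genes were chaperones and a transcription factor. Calr, calreticulin, averaged 743 ± 115 CPM in hCG and 489 ± 93.6 CPM in Ctrl (SD, n = 6 each) and rose by 0.62 ± 0.14 (SE; edgeR adjusted p = 0.0192). Canx was at 539 ± 52.8 CPM in hCG and 442 ± 25.3 CPM in Ctrl and rose by 0.30 ± 0.07 (edgeR adjusted p = 0.0184). All 6 hCG libraries lay above the highest Ctrl library for both. They were 2 of 15 tested processing genes, whose median was 0.06 against 0.0050 over all genes. Rfx5, a subunit of the factor on the X box of MHC promoters, rose by 0.34 ± 0.09 (edgeR adjusted p = 0.0359), 1 of 20 in its list, and was called in 6 of 16 alternatives, with differences of 0.29 to 0.39 over all 16; the call was lost without hCG library 2, 3, 4 or 6 (0.29 and edgeR adjusted p = 0.0696 for library 6), without any of Ctrl libraries 2 to 6, and with the replicate block. Calr and Canx were called in 16 of 16 (0.58 and 0.32 without hCG library 6). Of the other class I genes 0 of 8 and of the class II genes 0 of 8 were called by edgeR (0 and 1 at an unadjusted p under 0.05, 0 and 0 by DESeq2), with medians of 0.41 and 0.21, against 0.04 for the Rfx5 list. Fcgrt was at 20.1 ± 8.46 CPM in hCG and 15.6 ± 3.77 CPM in Ctrl, and Ctsl, an endosomal protease, and Lgmn were at 110 ± 40.4 and 84.3 ± 18.8 CPM in hCG and 87.5 ± 7.78 and 75.4 ± 5.56 CPM in Ctrl.

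Across the materials, whose tables were normalised separately, the median member difference was -0.49 over the 4 tested in oocytes, 0.23 over the 8 in blastocysts and 0.65 over the 8 in dDG, against 0.0066, 0.023 and 0.0050 over all genes tested. Without dDG library hCG 6 the dDG median was 0.44; in blastocysts it was 0.16 without Ctrl libraries 12 and 26 and 0.17 without the 5 hCG libraries with Xist and Y-linked transcripts. The members that passed a filter are not all members, and these medians are a description. The blastocyst median includes Tap1 and H2-Ab1, whose rise in that comparison led to the choice of the set. Its distance from the median of all genes is therefore not a result. B2m lay below 0 in oocytes (-0.53), at -0.06 in blastocysts (-0.16 with edgeR on estimated reads) and at 0.42 in dDG. The measures differ, as oocyte and dDG differences are from edgeR on counts. Blastocyst differences are from limma on log2(TMM-normalised CPM + 1). No test compared these differences between materials.

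**Figure D5:**
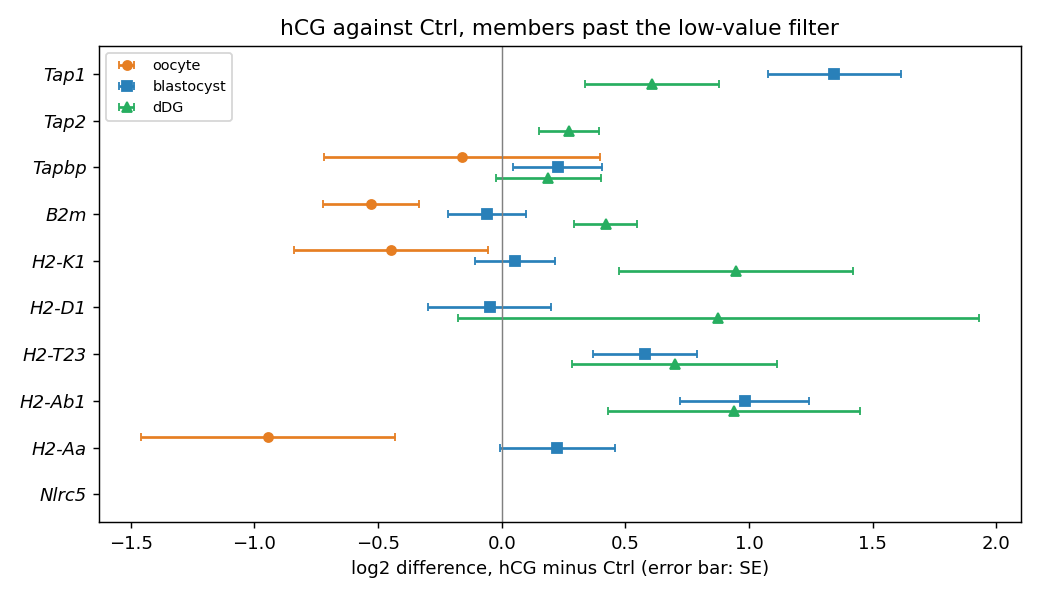
Difference of hCG minus Ctrl (log2) with its SE for each member that passed the filter, in oocytes (circles), blastocysts (squares) and dDG (triangles). Oocyte and dDG values are from edgeR on counts, and blastocyst values from limma on log2(TMM-normalised CPM + 1). Tap1 was at 1.35 in blastocysts and 0.61 in dDG, and had no count in oocytes.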

How the data were processed

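RNA tables of 80 samples were used, and the other 44 samples, bisulfite libraries, were not analysed here. The deposited oocyte table holds counts per gene symbol. The deposited dDG table holds expected counts per RefSeq transcript, which were summed per gene and rounded. The deposited blastocyst table holds a signal: each library has a step, between 39.29 and 244.49, of which 89.0% to 93.5% of its values are whole multiples within 0.005, and whose basis is not given in the sources used here. The values were divided by the column total, which removes the step, and division by the step gave estimated reads. Per the submitters' processing notes, STAR 2.7.6a, HTSeq 0.12.4, TopHat, Bowtie2, Trim Galore 0.6.4 and Trimmomatic 0.32 were used with the builds mm10 and GRCm38, without saying which made which table. Libraries are of polyA RNA, and no use of strand is stated.

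CPM in the text are plain shares of the library total. For counts and expected counts the test was edgeR 4.0.16 (R 4.3.3; TMM, robust quasi-likelihood F test, filterByExpr with 10 counts and 15 in total), and for blastocyst values limma 3.58.1 (trend, robust) on log2(TMM-normalised CPM + 1), with the filter on estimated reads. All p-values are two-sided, with Benjamini-Hochberg adjustment over all genes tested in a table, with a threshold of 0.05. The scripts were tested on simulated data. Members, lists and tests were chosen with earlier results of these data known. Named genes were all members and, per list and table, up to 4 called genes with the smallest p, or the 2 most abundant where none was called; Psmb9, Cd74, Ciita, H2-T10 and H2-DMa were named after their values were seen. Alternatives were DESeq2 1.42.0, other normalization factors, filters and pseudocounts, covariates, a replicate block and left-out libraries. Replicate numbers did not pair the samples. Limits at a count of 0 use 3 counts and cover counting error only. Promoter motifs were searched in Python with Biopython 1.88 for the alignment. Results for some list genes and 1 motif are not reported here.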

Additional observations from a re-analysis of the deposited data

Results flagged for a closer look

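In the dDG of hCG offspring, library 6 was farther from the other 5 hCG libraries than Dixon's 95% criterion allows for Tapbp, at 35.2 CPM, and for H2-K1, at 30.8 CPM. The same library carried the choroid plexus markers that summed to 9690 CPM. Of 30 groups of 6 libraries examined, 2 met this criterion, and chance gives about 1 in 20. Without it, the log2 difference of hCG from Ctrl was -0.03 for Tapbp and 0.43 for H2-K1. The part of the choroid plexus in these values was not tested.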

How the results depend on the processing

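Genes called in oocytes numbered 382 (127 higher and 255 lower in hCG) and ranged from 247 (80 higher, without Ctrl library 3) to 657 (292 higher, without Ctrl library 4) when 1 library was left out; DESeq2 gave 695 (265 higher, 430 lower) and the fit without Ctrl libraries 2 and 4 gave 595 (271 higher, 324 lower). In blastocysts the 1766 calls (942 higher, 824 lower) became 3670 (3655 higher, 15 lower) on deposited values without scaling, where the median of all genes was 0.49, 1147 (665 higher, 482 lower) without the 5 libraries with Xist and Y-linked transcripts, 775 (336 higher, 439 lower) with genes detected as a covariate, 1008 higher and 615 lower without TMM factors, and 576 higher and 972 lower with edgeR on estimated reads. Alternatives chosen after seeing the data gave 1497 without Ctrl libraries 12 and 26, 2026 with estimated reads as a covariate and 1099 (611 higher, 488 lower) among libraries under 6000000 reads. In dDG the 1091 calls ranged from 649 (without Ctrl library 6) to 1231 with 1 library left out, with 681 without Ctrl library 2 and 682 without Ctrl library 3; DESeq2 gave 1598.

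Replicate numbers did not pair the samples: correlations of same-numbered deviations were over 0.1 in 3 of 6 oocyte, 4 of 28 blastocyst and 1 of 6 dDG pairs. With the replicate number as a block, 336 oocyte, 1530 blastocyst and 583 (388 higher, 195 lower) dDG genes were called. In that fit the dDG B2m difference was 0.42 (edgeR adjusted p = 0.00727), and the oocyte Tapbp difference was 0.21.

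Among members, Tapbp reversed in oocytes without Ctrl library 1 (0.21) or 6 (0.16) and in dDG without hCG library 6 (-0.0318), with ranges over single left-out libraries of -0.46 to 0.21 and -0.0318 to 0.27, and B2m changed sign in blastocysts with genes detected as a covariate (0.25), without Ctrl libraries 12 and 26 (0.026) and unscaled (0.38), and H2-D1 unscaled (0.39); the cause was not tested. The oocyte B2m difference passed without Ctrl library 4 (-0.65) and without Ctrl libraries 2 and 4 (-0.76, edgeR adjusted p = 0.00979). The blastocyst Tap1 difference ran from 0.74 (pseudocount 5) to 1.95 (pseudocount 0.1) among scaled values, those of H2-Ab1 from 0.70 to 1.24 and of H2-T23 from 0.21 to 0.63; unscaled values gave 3.01, 1.76 and 1.06, and 1.68 for H2-Aa. H2-Aa did not pass the filter among libraries under 6000000 reads. Depth limits members with few counts: Tap1, Nlrc5, H2-D1, H2-T23, H2-Ab1 and Tap2 in oocytes, Tap2 and Nlrc5 in blastocysts, and H2-Aa and Nlrc5 in dDG.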

Other observations

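Other genes that the RefSeq table places in the MHC region of chromosome 17 were counted apart from the members. In dDG 13 of 109 tested were higher and 3 lower in hCG (14.7%, against 7.86% of all genes), in blastocysts 10 of 91 were higher and 1 lower (12.1%, against 16.3%), and in oocytes 2 of 55 were higher and 1 lower (5.45%, against 3.99%). These are counts without a test, and neighbouring genes are not independent.

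In dDG, 1 of the 2 RefSeq transcripts of Tapbp took 32.4% to 61.7% of the gene's expected counts in hCG and 32.3% to 59.8% in Ctrl libraries. Its share was 32.3% to 37.7% in hCG libraries 1 and 6 and Ctrl libraries 2, 3 and 6, and 48.2% to 61.7% in the others. In blastocysts the non-classical heavy chains H2-T10 and H2-Bl were below 1 CPM in 6 hCG and 4 Ctrl, and in 6 hCG and 3 Ctrl libraries, while their medians were 16.1 and 20.02 CPM in hCG and 16.5 and 13.8 CPM in Ctrl. Psmb8, which encodes an immunoproteasome subunit, was below 1 CPM in 28 hCG and 27 Ctrl blastocyst libraries, whereas its relative Psmb9 was below 1 CPM in 0 hCG and 1 Ctrl library.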
